A study of Mus musculus with 4 samples.

Results

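The energy metabolism of synovial myeloid cells was followed through serum-transfer arthritis with 32 genes of glycolysis and of the response to low oxygen. The genes were taken from a given list as rows of the deposited count matrices, out of 13036 genes listed in at least 1 of the 4 libraries. All 32 were listed at day 5 and 30 were listed in every library. Egln3 was listed only at day 5, and Vegfa only at days 1 and 5, so their levels on the other days are unknown and are not values of 0.

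Cells were CD45+CD11b+Ly6G- mononuclear cells sorted from the hind paw synovium, the tissue lining the joint, and their transcripts were counted as unique molecular identifiers (UMIs) near the 3' end. The mice were of the Cx3cr1creER:tdTomato strain, in which a tamoxifen-dependent Cre expressed from Cx3cr1, a chemokine receptor gene of mononuclear phagocytes, switches on a red reporter. Tamoxifen was given in repeated doses within 48 h, and K/BxN serum, which carries arthritogenic autoantibodies, followed 4 weeks later. A single library was made at steady state, called day 0, and a single one on each of days 1, 2 and 5 after serum. The number, age and sex of the mice behind each library are not given in the sources used here. The 4 libraries have no replicates, so nothing here is tested against the spread between mice. Intervals are exact Poisson 95% intervals that cover counting error only. Every comparison with day 0 uses the same day 0 library.

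A barcode was retained when it had 500 or more genes and less than 10% of its UMIs from mitochondrial genes, which left 3715, 4642, 2722 and 3235 barcodes at days 0, 1, 2 and 5. The filter removed 3827 of 7542 barcodes at day 0 and only 32, 34 and 30 at days 1, 2 and 5. Retained barcodes of day 0 had a median of 598 genes, near the limit. Comparisons with day 0 thus set a selected part of that library against nearly whole ones. The day 0 library was shallower, with a median of 1057 UMIs per retained barcode against 3607.5 to 4183.5 on the other days, and with 4347517 UMIs in all against 12159063 to 18373038. Between 10 and 22 barcode sequences were shared by any pair of libraries, at most 0.68% of either. Macrophage genes were present every day, with Csf1r between 689 and 1086 CPM (UMIs of the gene scaled to a common total, a level) and Cd68 between 767 and 1031 CPM. Haemoglobin genes, which mark red blood cells, were not listed at day 0 and summed to 29.2, 5.18 and 161 CPM at days 1, 2 and 5. The 6 proliferation genes summed to 143 to 178 CPM at days 0 to 2 and to 291 CPM at day 5. A single barcode held 2318 of the 2405 haemoglobin UMIs at day 5 and another 475 of 536 at day 1, and without these 2 barcodes the sums were 5.84 and 3.32 CPM. Barcodes with at least 2 UMIs of proliferation genes were 132, 152, 108 and 226.

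Glycolysis turns glucose into pyruvate in the cytoplasm and yields ATP without oxygen, and lactate dehydrogenase with a lactate exporter then disposes of the pyruvate. The transcription factor HIF-1 is stabilised when oxygen is low, or when inflammatory signals act on macrophages, and it induces most genes of this route together with genes for blood vessel growth, mitochondrial turnover and collagen modification. Inflamed joints are known to be short of oxygen, and activated monocytes and macrophages are known to draw on glycolysis.

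HIF-1 binds short sites with the core ACGTG or GCGTG. The 250 bases upstream of the transcription start were searched for both cores on both strands in RefSeq promoters of GRCm38.p6, the assembly that mm10 names. Of the 32 genes 29 had a promoter in the table, and 26 of the 29 (89.7%) held a core in at least 1 promoter, against 60.3% of 9951 listed genes with a promoter. Counted by promoter, 31 of 39 (79.5%) held one, against 54.3% of 12692 promoters of listed genes and 38.6% of all 32851 promoters. The median GC content was 62.8% in the promoters of the 32 genes and 59.2% in those of listed genes. Gpi1, Mif and Tpi1 had no core in this window. A match of 5 bases is a description of the letters and not evidence of binding. The 6 promoters below show how the cores lie in genes whose RNA differed between days (Ldha, Pgk1, Slc2a1, Slc16a3 and Ddit4) and in one that did not pass the threshold on any day (Bnip3). Each is the strand of the gene, 5' to 3', ending at the base before the start site, with the cores and their reverse complements in capitals. The windows are Ldha at chr7:46845554-46845803 (plus strand), Pgk1 at chrX:106186850-106187099 (plus), Slc2a1 at chr4:119108495-119108744 (plus), Slc16a3 at chr11:120948817-120949066 (plus), Ddit4 at chr10:59951771-59952020 (minus) and Bnip3 at chr7:138909507-138909756 (minus).
Ldha: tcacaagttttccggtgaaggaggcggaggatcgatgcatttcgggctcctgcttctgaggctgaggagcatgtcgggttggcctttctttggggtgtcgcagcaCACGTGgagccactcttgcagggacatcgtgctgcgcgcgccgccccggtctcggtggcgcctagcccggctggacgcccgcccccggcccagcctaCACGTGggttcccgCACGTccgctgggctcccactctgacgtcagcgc
Pgk1: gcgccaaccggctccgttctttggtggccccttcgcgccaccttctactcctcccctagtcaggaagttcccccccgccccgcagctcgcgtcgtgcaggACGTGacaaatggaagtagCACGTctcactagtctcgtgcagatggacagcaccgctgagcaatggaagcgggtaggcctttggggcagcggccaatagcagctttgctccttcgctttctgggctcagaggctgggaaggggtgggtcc
Slc2a1: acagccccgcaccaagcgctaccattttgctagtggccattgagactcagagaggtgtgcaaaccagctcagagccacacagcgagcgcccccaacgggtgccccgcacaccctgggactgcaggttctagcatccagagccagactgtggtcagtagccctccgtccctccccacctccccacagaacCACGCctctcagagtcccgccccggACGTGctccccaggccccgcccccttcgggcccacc
Slc16a3: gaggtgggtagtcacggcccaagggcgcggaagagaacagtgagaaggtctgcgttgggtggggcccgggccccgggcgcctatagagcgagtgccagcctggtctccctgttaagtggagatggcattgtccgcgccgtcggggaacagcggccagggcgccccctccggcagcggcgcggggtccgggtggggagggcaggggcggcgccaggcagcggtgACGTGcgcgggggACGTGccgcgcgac
Ddit4: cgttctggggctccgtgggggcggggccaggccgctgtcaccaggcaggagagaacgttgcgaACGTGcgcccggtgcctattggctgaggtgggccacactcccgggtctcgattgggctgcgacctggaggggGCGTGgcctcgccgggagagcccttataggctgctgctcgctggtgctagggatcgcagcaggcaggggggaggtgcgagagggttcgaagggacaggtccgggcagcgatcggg
Bnip3: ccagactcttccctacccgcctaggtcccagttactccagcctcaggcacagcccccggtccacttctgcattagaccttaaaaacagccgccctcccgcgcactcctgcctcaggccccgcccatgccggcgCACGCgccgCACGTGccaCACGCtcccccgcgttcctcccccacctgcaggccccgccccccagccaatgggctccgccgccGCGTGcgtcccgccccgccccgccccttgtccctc
A palindrome CACGTG holds a core on each strand and counts as 2 overlapping matches. The Ldha window held 5 matches, with 2 palindromes among them. A second Ldha promoter, at chr7:46846832-46847081 and not printed, held 1 match and no palindrome. The Bnip3 window also held 5, with 1 palindrome. Each of the other 4 windows held 2 matches.

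The first question was how the level of each gene ran over the days in the sorted cells as a whole. A gene entered a comparison when it was listed in both libraries, reached 10 CPM in 1 of them and had 20 UMIs over both. It was called higher or lower when the CPM differed by at least 1.5-fold. A gene under 10 CPM in 1 group entered through the other alone, so it could be called only in that direction. In a sum over sorted cells, fewer cells of a type and less RNA per cell cannot be told apart. At day 5 several genes of the route stood above every earlier day, led by the glucose transporter Slc2a1, the kinases Pgk1 and Pkm, the lactate exporter Slc16a3, Hif1a, Ddit4 and, against the earlier days of inflammation, Mif. Against day 1, 8 of 29 genes were higher and 0 lower, where 7.84% of 7515 tested genes were higher and 8.65% lower. Against day 2, 7 of 28 were higher and 0 lower, where 8.58% of genes were higher and 8.06% lower. Against day 0, 10 of 28 were higher and 0 lower, where 17% of genes were higher and 9.17% lower. The median log2 ratio of these genes was 0.37 against day 1, 0.27 against day 2 and 0.45 against day 0, and over all tested genes it was -0.05, -0.04 and 0.11. Ddit4 entered each comparison only through day 5, as did Vegfa against day 1 and Hk3 against day 0, so none of them could be called lower. Slc2a3, lower at day 5 than on every earlier day, stayed under 10 CPM and did not enter. Without the 1 barcode of day 5 and the 1 of day 1 that held most haemoglobin, or without the barcodes with proliferation genes, each of these counts stayed within 1.5 times its value.

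**Figure D1:**
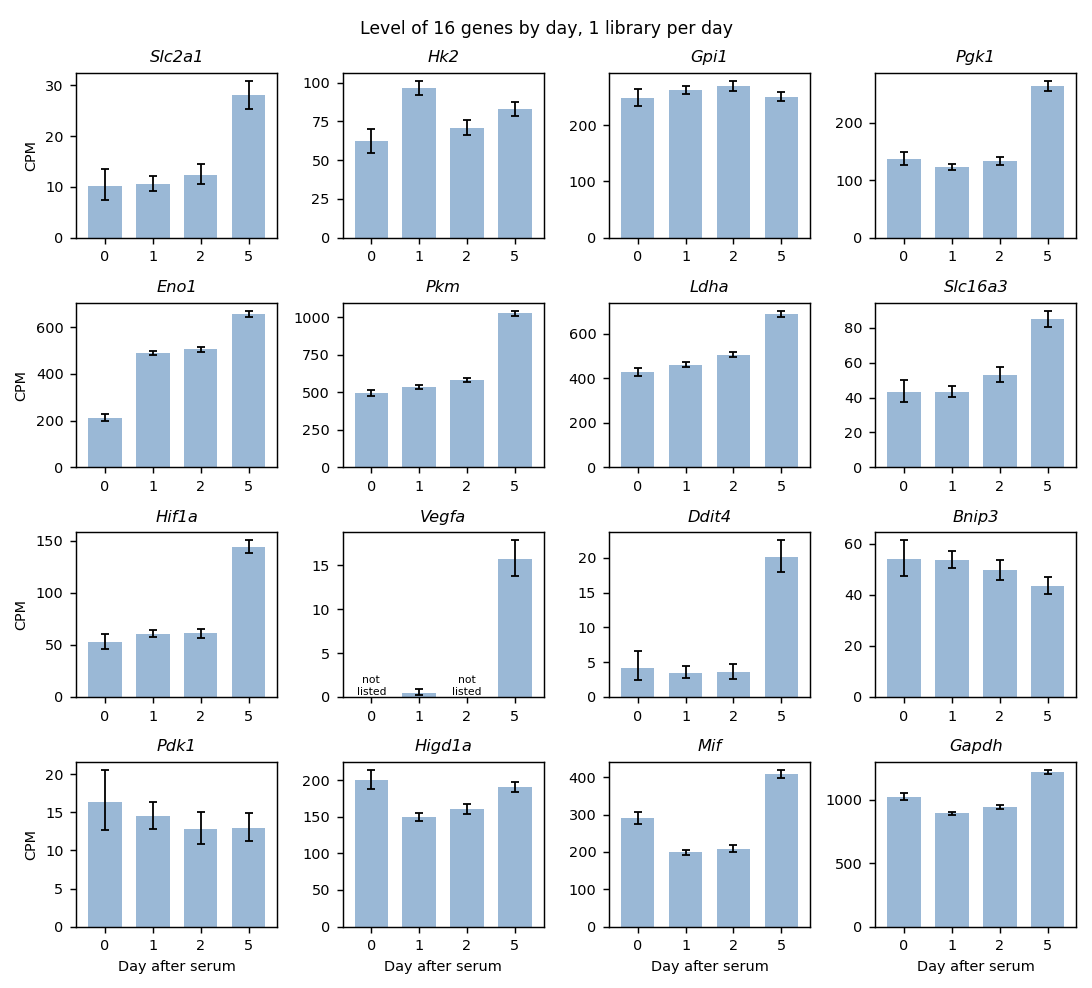
Level of 16 of the 32 genes in CPM (vertical axis) on days 0, 1, 2 and 5 after serum (horizontal axis), with 1 library per day and bars of the 95% Poisson interval. Slc2a1, Pgk1, Pkm, Hif1a and Ddit4 stand apart at day 5, Eno1 already stands at 489 CPM at day 1 against 213 CPM at day 0, and Gpi1 stays between 249 and 269 CPM.

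Glucose enters macrophages mainly through the transporter GLUT1, encoded by Slc2a1. Its level was 10.1 CPM (7.35 to 13.6) at day 0, 10.6 and 12.4 CPM at days 1 and 2, and 28.0 CPM (25.4 to 30.8) at day 5. The 3 earlier libraries were alike within their intervals and day 5 lay above all of them, 2.64-fold (2.22 to 3.14) above day 1. Slc2a3, which encodes the high-affinity transporter GLUT3, stood at 4.37, 5.88, 4.11 and 2.42 CPM and was too low to enter the comparison.

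Hexokinases trap glucose by phosphorylating it. Hk2, the inducible form, had 62.1, 96.4, 71.1 and 82.7 CPM over days 0, 1, 2 and 5, and was 1.55-fold higher at day 1 than at day 0. Hk3, a form of myeloid cells, had 5.06, 10.3, 7.65 and 10.5 CPM, about the same at days 1 and 5. Hk1, the constitutive form, varied only between 24.7 and 30.3 CPM. No hexokinase was higher at day 5 than at day 1.

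Of the upper steps, Gpi1, which converts glucose-6-phosphate to fructose-6-phosphate, stayed between 249 and 269 CPM. Pfkl, the liver-type phosphofructokinase that commits sugar to glycolysis, had 14.0, 25.7, 31.0 and 34.6 CPM over the same days, so that most of its difference was already there at day 1. Pfkp, the platelet-type form, had 46.5, 61.2, 60.8 and 68.2 CPM and was 1.47-fold (1.26 to 1.72) higher at day 5 than at day 0, just under the threshold. The regulators Pfkfb3 and Pfkfb4, which set the level of the activator fructose-2,6-bisphosphate, were between 16.2 and 21.6 CPM and between 15.9 and 23.5 CPM and passed the threshold in no comparison of days.

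The lower steps split the sugar and carry it to pyruvate. Pgk1, which makes ATP from bisphosphoglycerate, stood at 137, 124 and 134 CPM at days 0, 1 and 2 and at 265 CPM at day 5, 2.14-fold (2.03 to 2.25) above day 1. Pkm, which encodes the pyruvate kinase of the last step, stood at 496, 535 and 582 CPM and then at 1027 CPM, 1.92-fold (1.87 to 1.97) above day 1. For both genes day 5 alone stood apart. Eno1, which encodes the enolase of the step before, followed another course. It had 213 CPM (199.5 to 227) at day 0 and 489, 504 and 658 CPM on the later days, and was 2.3-fold higher already at day 1. Eno1b, a near-identical copy whose reads the counting could have split, moved in parallel at 5.06, 11.4, 12.1 and 15.7 CPM. Aldoa, Tpi1, Gapdh and Pgam1, the other enzymes of the lower steps, were between 1.29-fold and 1.46-fold higher at day 5 than at day 1, each under the threshold. Gapdh ran at 1026, 892, 944 and 1218 CPM, lowest at day 1. Processed copies of Gapdh and other abundant enzymes can share reads with them, so their levels are uncertain to that extent.

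At the exit, Ldha, which reduces pyruvate to lactate, had 428, 462, 507 and 691 CPM over the 4 days. It was 1.61-fold (1.54 to 1.70) higher at day 5 than at day 0, and at 1.497-fold it lay just under the threshold against day 1. Slc16a3, the lactate exporter MCT4, had 43.2, 43.4, 53.1 and 85.0 CPM, and was 1.96-fold (1.79 to 2.14) higher at day 5 than at day 1. Pdk1, a kinase that keeps pyruvate from the citric acid cycle and a common target of HIF-1, did not follow them, with 16.3, 14.5 and 12.8 CPM at days 0, 1 and 2 and 12.95 CPM at day 5.

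Hif1a, the oxygen-regulated subunit of HIF-1, had 52.7, 60.7 and 61.1 CPM at days 0, 1 and 2 and 144 CPM (138 to 150) at day 5, 2.38-fold (2.21 to 2.56) above day 1. Egln3, an enzyme that marks HIF for degradation and is itself induced by it, had 22 UMIs at day 5, or 1.48 CPM. Among hypoxia-inducible genes the days differed by gene. Vegfa, the growth factor of blood vessels, had 9 UMIs (0.49 CPM) at day 1 and 234 UMIs (15.7 CPM) at day 5, a 32.1-fold ratio (16.6 to 71.0). Ddit4, a stress-induced inhibitor of mTOR signalling, had 4.14, 3.48, 3.54 and 20.1 CPM, 5.78-fold (4.40 to 7.69) higher at day 5 than at day 1. The other genes of this group stood close to their earlier levels. Bnip3 and Bnip3l, receptors for the removal of mitochondria, had 54.1, 53.7, 49.6 and 43.6 CPM and 132, 148, 145 and 121 CPM, each 0.81 of day 1 at day 5. Ankrd37, P4ha1 (a collagen prolyl hydroxylase), Ndrg1 and Higd1a (a mitochondrial survival protein) passed the threshold in no comparison of days. Adm, the vasodilator adrenomedullin, was between 0.90 and 1.36 CPM and did not enter any.

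Mif, a cytokine of macrophages and a hypoxia-inducible gene, ran at 292 CPM at steady state and at 199, 209 and 410 CPM after serum. It was 2.06-fold (1.98 to 2.15) higher at day 5 than at day 1 and 1.40-fold higher than at day 0.

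Before day 5 few genes differed from day 0. At day 1, 4 of 27 genes were higher (Hk2, Hk3, Pfkl and Eno1) and 0 lower, a share near the 13.9% of all tested genes that were higher, and 5.17% were lower. Hk3 had 5.06 CPM at day 0, so it entered only through day 1 and could not be called lower. At day 2, 2 of 26 were higher (Pfkl at 2.21-fold and Eno1 at 2.37-fold) and 0 lower, against 13.8% and 6.19% of all genes. With CPM scaled to the median gene ratio the splits were 3 higher and 1 lower (Mif) at day 1 and 2 higher and 1 lower (Mif) at day 2. The shares of all genes just given are without that scaling. The median ratio of all genes lay at 0.15, 0.14 and 0.11 on the log2 scale for days 1, 2 and 5 against day 0.

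**Figure D2:**
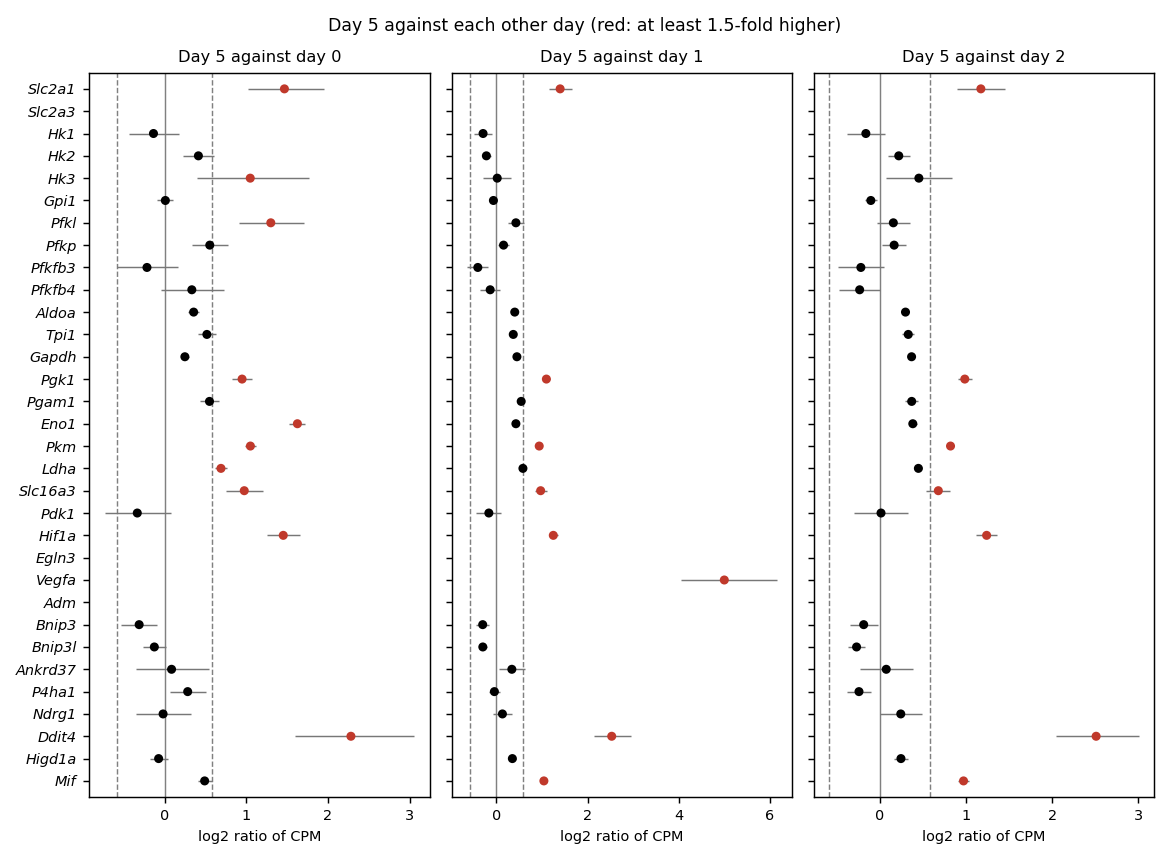
Ratio of CPM at day 5 to CPM at days 0, 1 and 2 (log2, horizontal axis; the axes differ in range) for each gene that entered the comparison (vertical axis). Points are ratios, lines 95% counting intervals, dashed lines 1.5-fold, and red points at least 1.5-fold higher. Slc2a1, Pgk1, Pkm, Slc16a3, Hif1a and Ddit4 are red in all 3 panels, while Eno1, Pfkl, Hk3 and Ldha are red only against day 0.

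The second question was which cells carried these transcripts. Barcodes were called positive for Sparc, Aqp1, Cd163, H2-Aa, Plac8 or Arg1 when they held at least 1 UMI of that gene, and negative when they held none. Sparc marks macrophages of the synovial lining, Aqp1 (a water channel) another set of macrophages, Cd163 macrophages of the tissue beneath it, H2-Aa cells that present antigen on MHC class II, Plac8 cells recently derived from blood monocytes, and Arg1 (arginase 1) macrophages of the alternatively activated or wound type. The sets can overlap and are not cell types. At day 5 they held 915, 1039, 789, 1557, 826 and 227 barcodes, in that order, or 28.3%, 32.1%, 24.4%, 48.1%, 25.5% and 7.02% of the retained ones. With every barcode thinned to 500 UMIs the shares were 15.9%, 10.4%, 6.21%, 26.9%, 12.2% and 2.04%. Plac8-positive barcodes were 59 at day 1 and 52 at day 2, and Arg1-positive ones 43 and 29.

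Most other markers followed the defining genes, to differing degrees. At day 5 the lining gene Vsig4 was 24.7-fold higher in Sparc-positive than in Sparc-negative barcodes, the monocyte gene Ly6c2 31.7-fold higher in Plac8-positive ones, H2-Ab1 44.2-fold higher in H2-Aa-positive ones and Spp1 4.43-fold higher in Arg1-positive ones. Genes listed with Cd163 differed less, from F13a1 at 2.22-fold to Ccl24 at 3.63-fold. Inhba, another gene listed with Arg1, was at 0.84 against 2.11 CPM and did not follow it. Fcgr4, listed with Sparc as a lining gene, was at 8.54 against 16.3 CPM and did not follow Sparc. At day 0 the sets were much less distinct. Vsig4 differed 1.95-fold there, H2-Ab1 6.27-fold, and 1093 of the 1914 Sparc-positive barcodes also held H2-Aa. Free RNA can give a barcode a UMI of a gene that its cell does not express, and at day 5 71 of the 915 Sparc-positive barcodes held Plac8. Results by set therefore rest mainly on days 1, 2 and 5.

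At day 5 most genes of glycolysis and hypoxia were highest in Arg1-positive or Plac8-positive barcodes and lowest in Sparc-, Aqp1- or Cd163-positive ones. Of 29 genes tested, 18 had their highest CPM in the Arg1-positive set and 5 in the Plac8-positive set, and 11 had their lowest in the Cd163-positive and 9 in the Sparc-positive set. The share of all genes with their highest or lowest CPM in each set is not given here. The Arg1-positive set held the fewest UMIs (1184199), so its CPM values vary most by counting. In Arg1-positive against Arg1-negative barcodes 19 genes were higher and 0 lower, where 6.59% of all tested genes were higher and 11.9% lower. In Plac8-positive barcodes 7 were higher and 1 lower, where 9.65% were higher and 24.1% lower. With scaling to the median gene ratio that split was 10 and 0. All shares of all genes in this paragraph are without scaling, which also changes them. Sparc-positive barcodes had 1 higher and 8 lower (15.1% and 12% of all genes), Aqp1-positive ones 0 and 9 (15.5% and 6.6%), and Cd163-positive ones 1 and 12 (11% and 6.65%). H2-Aa-positive barcodes had 1 higher and 1 lower (4.42% and 7.93%), and 1 and 0 with scaling to the median. The median log2 ratio of the 29 genes was 0.65 for Arg1, 0.26 for Plac8, 0.06 for H2-Aa, -0.35 for Sparc, -0.31 for Aqp1 and -0.44 for Cd163, beside -0.02, -0.18, -0.04, 0.01, 0.13 and 0.06 over all tested genes. With thinning the medians for Arg1 were 1.22 and 0.70, where 32% of all tested genes had 0 UMIs in the positive barcodes and were set to 3.

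**Figure D3:**
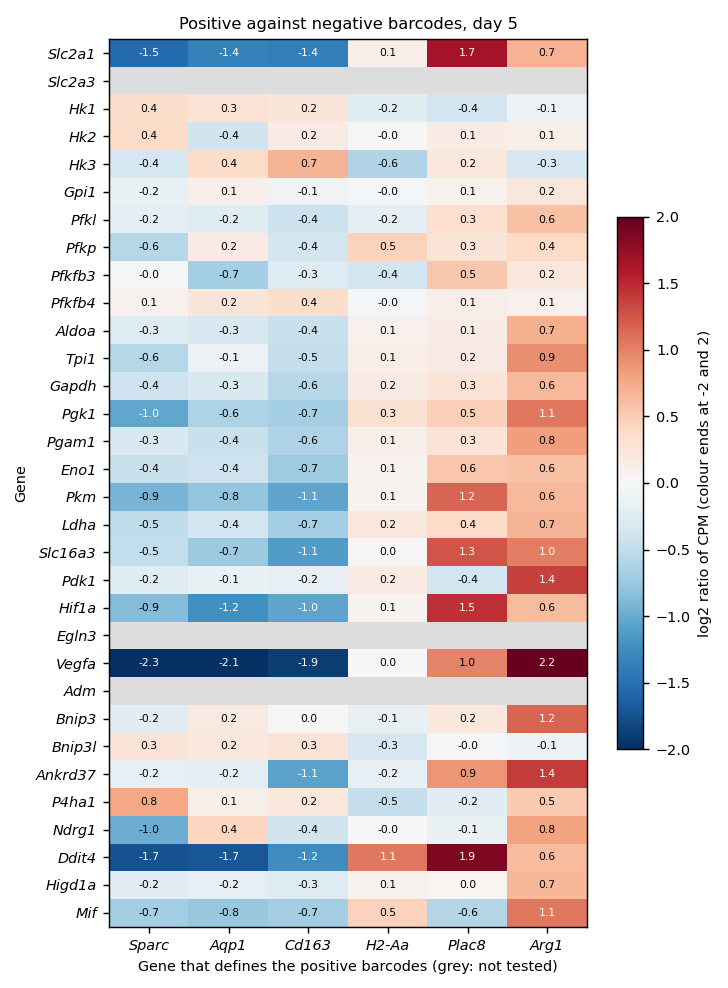
Log2 ratio of CPM in positive against negative barcodes at day 5, for the 32 genes (rows) and the 6 genes that define the sets (columns), with grey for genes not tested. The Arg1 column is red from Aldoa to Ldha, the Plac8 column is red mainly for Slc2a1, Pkm, Slc16a3, Hif1a, Vegfa, Ankrd37 and Ddit4, and Mif is blue there at -0.59.

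The Arg1-positive pattern ran through the lower steps as a whole. All 7 of these enzymes were higher, from Eno1 at 949 against 632 CPM (1.501-fold, 1.41 to 1.60) to Pgk1 at 505 against 244 CPM (2.07-fold, 1.90 to 2.26). Tpi1, the triosephosphate isomerase, was 1.91-fold higher and Ldha 1.60-fold. The upper steps and the hexokinases were not among the 19. Pfkl was at 49.8 against 33.2 CPM, just short of 1.5-fold, Gpi1 was 1.17-fold higher and Hk1, Hk2 and Hk3 were between 0.79 and 1.09 of the negative level. Vegfa had 55.7 against 12.2 CPM (4.55-fold, 3.37 to 6.08), the largest ratio of the 29 in this set. Hypoxia-inducible genes that were level over the days were higher here: Ankrd37 at 31.3 against 11.9 CPM, Pdk1 at 29.6 against 11.5, Bnip3 at 88.7 against 39.7, Ndrg1 at 37.2 against 21.2 and Higd1a at 288 against 182. Mif was 2.09-fold (1.94 to 2.24) higher. Bnip3l, at 111 against 121 CPM, was not.

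The Plac8-positive pattern was narrower. Ddit4 had 44.0 against 12.0 CPM (3.65-fold, 2.89 to 4.62), Slc2a1 57.2 against 18.1 CPM (3.17-fold, 2.60 to 3.86) and Hif1a 274 against 100 CPM (2.74-fold, 2.51 to 2.98). Slc16a3 was 2.40-fold, Pkm 2.25-fold, Vegfa 1.98-fold and Ankrd37 1.84-fold higher. With barcodes thinned to 500 UMIs Ankrd37 turned to 0.623, and the other 6 stayed higher. So 1 gene each of uptake, the last step and lactate export, and Hif1a itself, were higher in this set at day 5. Aldoa, Tpi1 and Gapdh were only 1.10-fold to 1.21-fold higher. The set held 43.2% of the UMIs of Pkm, 44.9% of Slc16a3 and 48.2% of Hif1a, beside 25.3% of all UMIs. Eno1 was 1.47-fold higher, just under the threshold. Mif was lower, at 298 against 448 CPM. In the few Plac8-positive barcodes of days 1 and 2 these genes differed. Hif1a was 2.16-fold higher at day 1 and 1.73-fold at day 2, on 31 and 24 UMIs. Pkm was 1.34-fold and 1.30-fold higher and not called. Slc16a3 was 1.55-fold higher at day 1 and level at day 2 (0.98), on 16 and 12 UMIs, and Slc2a1 had only 3 and 2 UMIs (1.18-fold and 0.69). Ankrd37 had 1 and 4 UMIs, and Ddit4, with 5 and 4 UMIs, entered the comparison only through this set. At day 5 the 8 genes that tissue handling induces (Fos, Jun and others) summed to 7362 CPM in Plac8-positive and 4056 CPM in Plac8-negative barcodes, and the proliferation genes to 132 and 345 CPM. Ddit4 is itself a stress gene. The part of handling in these ratios was not tested. Leaving out barcodes with proliferation genes left 0 genes lower in place of 1, and the higher count within 1.5 times.

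Arg1-positive barcodes were also set against Plac8-positive ones directly. With the 59 barcodes positive for both set aside, 12 of 29 genes were higher and 1 lower in the 168 Arg1-positive than in the 767 Plac8-positive barcodes, where 23.5% of all genes were higher and 13.7% lower. With scaling to the median gene ratio, which lay at 0.14 (log2), 6 were higher (Mif, Pdk1, Vegfa, Ndrg1, Bnip3 and Tpi1) and 3 lower (Ddit4, Hif1a and Slc2a1). The shares of all genes just given are without the scaling, so these 2 counts have no share beside them. This comparison was chosen after the values above were seen. Pdk1 was 3.24-fold (1.81 to 5.77) higher, Mif 3.11-fold (2.83 to 3.43), Vegfa 2.42-fold and Ndrg1 2.09-fold. Tpi1, Pgk1, Pgam1 and Aldoa were between 1.52-fold and 1.72-fold higher, and of these 4 only Tpi1 stayed above 1.5-fold with the scaling. Ddit4 was the 1 gene lower, at 19.1 against 42.5 CPM. Hif1a, Slc2a1 and Pkm were at 0.69, 0.70 and 0.78 of the Plac8-positive level without the scaling. The 3 neutrophil genes listed of 8 summed to 50.7 and 33.1 CPM in these sets, while Ngp, Ltf, Camp, Retnlg and Ly6g were not listed at day 5. The handling genes summed to 3719 and 7348 CPM and the proliferation genes to 321 and 132 CPM, and the part of either was not tested.

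Sparc-, Aqp1- and Cd163-positive barcodes shared 7 lower genes: Slc2a1, Pgk1, Pkm, Hif1a, Vegfa, Ddit4 and Mif. The share of all genes lower in all 3 sets is not given here. The sets are not independent, since 430 of the 789 Cd163-positive barcodes also held Aqp1. Only 71, 69 and 68 of the 826 Plac8-positive barcodes lay in these sets. Slc2a1, Pkm, Hif1a, Vegfa and Ddit4 were also higher in both the Plac8 and Arg1 sets, so this is partly the same contrast. Pkm had 626 CPM in Sparc-positive, 686 in Aqp1-positive and 565 in Cd163-positive barcodes, and 1171 to 1198 CPM in the corresponding negative ones. Vegfa was between 4.27 and 5.08 CPM in these 3 sets, so it entered only through the negative barcodes and could not be called higher. Cd163-positive barcodes were also lower in Eno1, Pgam1, Ldha, Slc16a3 and Ankrd37, and Hk3 was the 1 gene higher there, on 52 UMIs (1.60-fold, 1.12 to 2.25, turning to 0.888 with barcodes thinned to 500 UMIs).

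At days 1 and 2 the sets differed in other genes. In Sparc-positive barcodes 4 of 27 genes were higher at day 1 (Slc16a3, Pfkfb3, P4ha1 and Hif1a) and 3 lower (Hk3, Pfkp and Ndrg1), where 5.93% and 5.49% of all genes were. At day 2, 3 of 26 were higher (Slc16a3, P4ha1 and Hif1a) and 2 lower (Pfkp and Ndrg1), where 5.71% and 5.79% were. Sparc-positive barcodes were thus above the negative ones in Hif1a and Slc16a3 on both days. In Aqp1-positive barcodes 3 of 27 were higher at day 1 (Ndrg1, Ankrd37 and Pfkp) and 2 lower (Hk2 and Pfkfb3), against 4.22% and 3.4%, and 2 of 26 were higher at day 2 (Ndrg1 and Pfkp) and 0 lower, against 4.45% and 3.71%. In Cd163-positive barcodes none of 27 passed the threshold at day 1, against 0.866% and 1.16% of all genes, and at day 2 none of 26 were higher and 2 lower (Slc2a1 and Ankrd37), against 1.93% and 1.53%. In H2-Aa-positive barcodes no gene passed it on either day, against 4.16% and 4.34% at day 1 and 3.67% and 3.37% at day 2. In the few Plac8-positive barcodes 4 of 28 were higher and 4 lower at day 1 (18.3% and 24.4% of all genes), and 6 of 28 were higher and 3 lower at day 2 (18.1% and 24.7%).

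P4ha1, Ndrg1 and Pfkp separated the sets in the same direction at days 1 and 2, and partly at day 5. P4ha1, needed for stable collagen, was higher in Sparc-positive barcodes by 1.76-fold at day 1, 1.79-fold at day 2 and 1.71-fold (1.496 to 1.96) at day 5, with 80.5, 88.5 and 83.8 CPM. The 6 fibroblast genes summed to 236, 136 and 265 CPM in these barcodes and to 27.6, 35.5 and 22.6 CPM in Sparc-negative ones, with Pdgfra not listed at day 2. Their part in the P4ha1 ratio was not tested. Ndrg1 was lower in Sparc-positive barcodes on the same days, at 0.60, 0.39 and 0.50 of the negative level. In Aqp1-positive barcodes Ndrg1 was instead higher, 2.57-fold at day 1, 2.05-fold at day 2 and 1.34-fold at day 5. Pfkp followed Ndrg1, at 0.58, 0.61 and 0.68 in Sparc-positive and 1.55-fold, 1.60-fold and 1.12-fold in Aqp1-positive barcodes.

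The third question was whether the level within a set differed between day 5 and day 1, libraries of like depth. Within Sparc-positive barcodes 0 of 26 genes were higher and 2 were lower (Pfkfb3 at 0.54 and Bnip3 at 0.63 of day 1), where 3.72% of all genes were higher and 1.49% lower. Within Aqp1-positive barcodes 0 of 27 were higher and 1 lower (Pfkfb3 at 0.64), where 4.18% and 1.52% were. Within Cd163-positive barcodes 2 of 27 were higher (Pgk1 at 1.60-fold and Mif at 1.59-fold) and 1 lower (Pfkfb3 at 0.64), where 3.73% and 2.14% were. Just outside were Pgk1 in Aqp1-positive barcodes and Hif1a in Cd163-positive ones (from 53.3 to 79.5 CPM), both at 1.49-fold. Pfkfb3 thus stood lower at day 5 in all 3 sets. Vegfa and Ddit4, with the largest ratios over all barcodes, were too low to be tested in these 3 sets. Within H2-Aa-positive barcodes 11 of 28 were higher and 0 lower, where 8.86% and 10.9% of genes were. Within Plac8-positive barcodes 17 of 29 were higher and 3 lower (Hk1, Pdk1 and Bnip3l), where 17.1% and 26.1% were, with only 59 barcodes at day 1. The sets also differed in make-up between the days. Aqp1 was held by 16 of 59 Plac8-positive barcodes at day 1 and 69 of 826 at day 5. Of H2-Aa-positive barcodes 887 of 1690 held Aqp1 at day 1 and 374 of 1557 at day 5. The part of this make-up in the ratios within sets was not tested. Day 5 was also set against day 2. The Sparc set had 0 higher and 0 lower of 26 (4.17% and 1.33% of all genes), and the Aqp1 set 1 and 1 of 27 (Hk3 and Pfkfb3; 5.02% and 1.1%). The Cd163 set had 4 and 0 of 26 (Slc2a1, Hk3, Pgk1 and Mif higher; 5.23% and 2.28%), the H2-Aa set 7 and 0 of 27 (10.3% and 11.3%), and the Plac8 set 13 and 2 of 28 (18.6% and 25.4%).

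The early difference of Eno1 and Pfkl stood in every set with enough barcodes at day 0. At day 1 against day 0 Eno1 was 2.38-fold higher within Sparc-positive, 2.26-fold within Aqp1-positive, 2.11-fold within Cd163-positive and 2.40-fold within H2-Aa-positive barcodes. Pfkl was between 1.72-fold and 2.23-fold higher in the same sets. In all, 3 of 26 genes were higher and 0 lower in the Sparc set (16.6% and 6.95% of all genes), 4 and 1 of 27 in the Aqp1 set (16.5% and 5.42%), 4 and 0 of 26 in the Cd163 set (18.6% and 6.96%) and 4 and 1 of 26 in the H2-Aa set (14.2% and 6.14%). Mif was the lower gene in both the Aqp1 and the H2-Aa set. The day 0 library was the shallow one, far more of its barcodes were removed by the filter, and its sets were the least distinct. The part of each in these ratios was not tested.

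**Figure D4:**
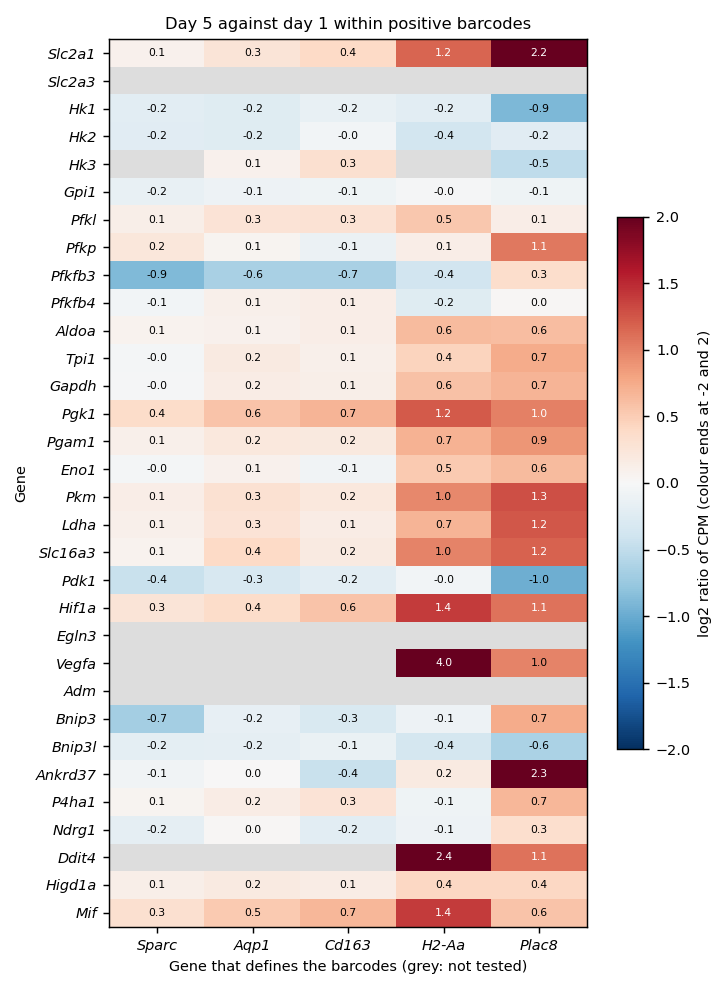
Log2 ratio of CPM at day 5 to CPM at day 1 within the positive barcodes of each set (columns) for the 32 genes (rows), with grey for genes not tested. The Sparc, Aqp1 and Cd163 columns lie mostly between -0.5 and 0.5, while the H2-Aa and Plac8 columns are red from Aldoa to Slc16a3 and for Hif1a and Slc2a1. The Plac8 column rests on 59 barcodes at day 1.

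Hif1a shows the course by set. In Sparc-positive barcodes it had 76.6 CPM at day 1, 75.3 at day 2 and 91.7 at day 5, a ratio of 1.20 (1.05 to 1.36) between days 5 and 1. In Sparc-negative barcodes it had 47.9, 45.1 and 167 CPM. The set was therefore 1.60-fold and 1.67-fold above the negative barcodes at days 1 and 2, and at 0.55 of them at day 5. Slc16a3 ran alike, with 62.9, 67.5 and 66.3 CPM in Sparc-positive and 27.8, 36.9 and 93.0 CPM in Sparc-negative barcodes. In H2-Aa-positive barcodes Hif1a was 2.64-fold (2.36 to 2.96), Mif 2.63-fold, Pgk1 2.34-fold, Slc2a1 2.25-fold, Slc16a3 2.00-fold and Pkm 1.95-fold higher at day 5 than at day 1. Within Plac8-positive barcodes Pkm had 716 CPM at day 1 and 1752 CPM at day 5 (2.45-fold, 2.104 to 2.86), and Ldha 354 and 837 CPM (2.37-fold, 1.91 to 2.97).

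Of the 1557 H2-Aa-positive barcodes of day 5, 444 also held Plac8 and 104 held Arg1. Comparisons without them were added after the values were seen. In H2-Aa-positive barcodes with neither gene, 1040 at day 5 and 1651 at day 1, 8 of 28 genes were higher and 1 lower (Pfkfb3), where 8.9% and 7.22% of genes were. Mif was 2.86-fold, Pgk1 2.11-fold, Hif1a 1.80-fold and Pkm 1.53-fold higher there. Vegfa and Ddit4, also among the 8, had 0.85 and 4.96 CPM at day 1 and entered through day 5 alone. Slc2a3, at 0.44 of day 1, was too low to be tested. In all barcodes with neither Plac8 nor Arg1, 2241 and 4543, 5 of 28 were higher (Ddit4, Mif, Pgk1, Hif1a and Slc2a1) and 1 lower (Pfkfb3), where 5.75% and 2.71% of genes were. With scaling to the median the counts were 5 and 0, and the shares given are without it. Ddit4 again entered through day 5 alone, and Slc2a3, at 0.51 of day 1, was again too low to be tested. Hif1a was 1.54-fold (1.41 to 1.69) higher among the barcodes with neither gene, against 2.38-fold in all barcodes, and Slc16a3 1.30-fold against 1.96-fold. Mif was 2.09-fold higher against 2.06-fold, so that its day ratio was as large without these barcodes.

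Seen from the UMIs of day 5, the 994 barcodes positive for Plac8 or Arg1 were 30.7% of the library and held 31.3% of all UMIs. They held 61.0% of the UMIs of Ddit4, 60.4% of Slc2a1, 59.4% of Vegfa, 56.0% of Hif1a, 55.7% of Slc16a3 and 51.0% of Pkm. Their share of Mif was 30.7%, of Bnip3l 30.5% and of P4ha1 30.3%, close to their share of all UMIs.

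The summed share of 8 enzymes (Aldoa, Tpi1, Gapdh, Pgk1, Pgam1, Eno1, Pkm and Ldha) among the UMIs of each barcode was computed as a value per barcode. The median over all retained barcodes was 0.298%, 0.277%, 0.30% and 0.379% at days 0, 1, 2 and 5, and the enzymes' share of all summed UMIs was 0.321%, 0.342%, 0.366% and 0.509%. In Sparc-positive barcodes the median was 0.334% at day 1, 0.328% at day 2 and 0.322% at day 5, while the summed share was 0.373%, 0.381% and 0.387%. Medians in Cd163-positive barcodes were 0.252%, 0.281% and 0.254%. H2-Aa-positive ones had 0.260%, 0.292% and 0.402%, and Plac8-positive ones 0.264%, 0.309% and 0.585%. Arg1-positive barcodes of day 5 had 0.701%, with quartiles of 0.435% and 1.02%, a range that overlaps the quartiles of Plac8-positive barcodes (0.410% and 0.816%) widely and those of Sparc-positive ones (0.226% and 0.447%) only at its lower end. The 191 barcodes of day 5 with none of the 6 genes had a median of 0.434%, and in them Spp1 and the other genes listed with Arg1 summed to 5895 CPM. They include the barcode with most haemoglobin.

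**Figure D5:**
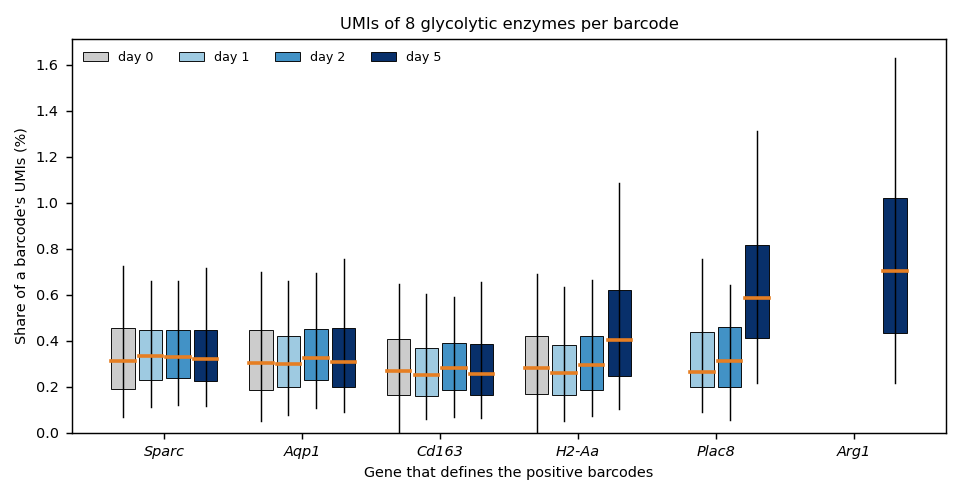
Share of each barcode's UMIs (%) that came from 8 glycolytic enzymes, by set (horizontal axis) and day (colour). Boxes run between the quartiles with the median as a line, and whiskers run from the 5th to the 95th percentile; sets of under 50 barcodes are not drawn. The Sparc, Aqp1 and Cd163 boxes overlap on all days, while the day 5 boxes of H2-Aa, Plac8 and Arg1 lie higher.

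The rest of these pathways was read from longer lists. Against day 1, 7.84% of all genes were higher and 8.65% lower. Of 19 further glycolysis genes 6 entered this comparison at day 5. Gpd2, the mitochondrial glycerophosphate dehydrogenase, was higher (from 13.01 to 20.5 CPM, 1.57-fold), and Bpgm, which makes 2,3-bisphosphoglycerate in red blood cells, lower (15.0 to 8.93 CPM). Of 22 further hypoxia genes 12 entered it and 3 were higher. Hilpda, a lipid droplet protein, went from 18.8 to 62.9 CPM (3.35-fold), Ero1l, an oxidase of the endoplasmic reticulum, from 16.5 to 25.5 CPM and Bhlhe40, a repressor of transcription, from 85.1 to 129.5 CPM. None of the 12 was lower. Of the 7 genes of the pentose phosphate pathway, which branches from glycolysis to make NADPH, 0 passed 1.5-fold against day 1, with a median log2 ratio of 0.24. Of 15 genes tested of the mitochondrial citric acid cycle 1 was higher, Mdh2 (188 to 299 CPM, 1.59-fold). In Arg1-positive barcodes of day 5 the 12 further hypoxia genes tested divided, with 5 higher and 3 lower, where 6.59% and 11.9% of all genes were, and no gene of the pentose phosphate pathway or the citric acid cycle passed the threshold.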

How the data were processed

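The deposited files hold the authors' UMI counts per gene and barcode for 4 libraries, 1 per day, made on the 10x Chromium 3' v2 platform per the labels' protocols. The submitters' processing notes name Cell Ranger 2.1.0, Seurat 2.3, R 3.5.2 and mm10, without giving the role of each. No listed gene occurs in fewer than 5 barcodes of its file, and an unlisted gene has no value.

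Retention needed 500 genes and less than 10% mitochondrial UMIs. Doublets were not called and clusters were not made. Counts were summed over barcodes and scaled to CPM. Ratios carry exact conditional Poisson 95% intervals, with a count of 0 set to 3. A gene was tested with 10 CPM in 1 group and 20 UMIs over both, and called at 1.5-fold. No p-values were computed. Sets under 50 barcodes were not used. All 32 genes could be named, and other pathway genes came from lists. The genes, lists and markers were chosen with earlier results of these data known. Promoter windows came from RefSeq (GRCm38.p6) and were matched by symbol. Sums and ratios came from Python 3.11.15 with pandas 2.3.3 and numpy 2.4.6, intervals from scipy 1.17.1 and figures from matplotlib 3.10.9, and the ratio script was tested on simulated data.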

Additional observations from a re-analysis of the deposited data

Results flagged for a closer look

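Bnip3, a receptor for the removal of mitochondria, ran in opposite directions in 2 sets between day 1 and day 5. Its CPM ratio was 1.66 (0.79 to 4.20) within Plac8-positive barcodes and 0.627 (0.525 to 0.746) within Sparc-positive ones. The interval of the first includes 1, it rests on 7 UMIs at day 1, each set has 1 library per day, and the difference was not tested.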

How the results depend on the processing

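Of 276 alternative counts of called genes 206 stayed within 1.5 times the value in the report and 70 did not. The share of all genes called under each setting is not given here, so the alternative counts are not read against one. Of 138 median log2 ratios 130 stayed within the typical counting interval of 1 gene and 8 did not. Of 1107 ratios of single genes 897 stayed within their counting interval, 208 moved beyond it and 2 turned. Both turned with barcodes thinned to 500 UMIs: Hk3 in the Cd163 set to 0.888 and Ankrd37 in the Plac8 set to 0.623.
For day 1 against day 0 the count of lower genes was 1 with at least 1000 genes per barcode, at least 200 genes, median-ratio scaling or the mean of each barcode's CPM, and 3 with thinning, and the higher count was 2 at 2-fold. For day 2 against day 0 the higher count was 8 with at least 1000 genes and 4 with thinning, and the lower count 1 with median-ratio scaling, mean CPM or thinning. A minimum of 1000 genes left only 96 barcodes at day 0. For day 5 against days 0, 1 and 2 the lower count was 1 without a filter on low values and 1 with thinning, and against day 2 the higher count was 3 at 2-fold.
At day 5 a 2-fold call gave 0 higher and 4 lower for Sparc, 4 lower for Aqp1, 0 higher and 7 lower for Cd163, 0 lower for H2-Aa, 0 lower for Plac8 and 7 higher for Arg1. Thinning gave 4 higher for Sparc, 2 for Aqp1, 3 for Cd163 and 4 for H2-Aa, and 2 lower for Plac8. With at least 3 UMIs for a positive barcode there were 1 higher for Aqp1, 2 higher for H2-Aa, 3 lower for Plac8 and 1 lower for Arg1. With barcodes positive for 1 gene alone there were 3 higher for Sparc, 1 higher for Aqp1, 4 lower for H2-Aa, 3 lower for Plac8 and 1 lower for Arg1. The lower count for H2-Aa was 0 with under 5% mitochondrial UMIs, mean CPM or median-ratio scaling, and that for Plac8 was 0 with mean CPM, median-ratio scaling or without proliferating barcodes.
Within sets, day 5 against day 1, a 2-fold call gave 0 lower for Sparc, 0 lower for Aqp1, 0 higher and 0 lower for Cd163, 6 higher for H2-Aa, and 9 higher and 0 lower for Plac8. With at least 3 UMIs there were 1 higher and 0 lower for Cd163 and 1 lower for H2-Aa. With 1 gene alone there were 2 higher for Aqp1 and 2 lower for H2-Aa, and with under 5% mitochondrial UMIs 1 higher for Aqp1. For Arg1 without Plac8 against Plac8 without Arg1 the higher count was 4 at 2-fold and 6 with median-ratio scaling, and the lower count 2 with under 5% mitochondrial UMIs and 3 with median-ratio scaling. For barcodes without Plac8 and Arg1 a 2-fold call gave 2 higher and 0 lower, and the lower count was 0 without proliferating barcodes, with under 5% mitochondrial UMIs or with median-ratio scaling. For H2-Aa-positive barcodes without both a 2-fold call gave 4 higher and 0 lower. A 2-fold call and sets of fewer barcodes lower counts by construction, and for the other settings the cause was not tested.
The median ratio of all genes lay at 0.13 (log2) for the Aqp1 set and -0.18 for the Plac8 set. A comparison of day 5 with day 1 within Arg1-positive barcodes was planned and not run, because day 1 held 43 of them. Thinning left 6 further ratios with 0 UMIs in the positive barcodes, which gave only an upper limit. No paired analysis was possible because each day has 1 library and the groups share fewer than 2 replicate numbers. Adm and Slc2a3 stayed under 10 CPM on every day and were not compared.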

Other observations

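Of the 7 genes of the pentose phosphate pathway, 3 were higher at day 5 than at day 0, the shallow library, against 17% of all tested genes. These were Taldo1 (2.01-fold, 1.87 to 2.17), Rpia (1.57-fold, 1.09 to 2.32) and Rpe (1.503-fold, 1.13 to 2.02). Rpia had 8.05 CPM at day 0 and entered only through day 5. G6pdx (22.5 and 26.6 CPM at days 0 and 5), Pgd (97.5 and 105 CPM), Pgls and Tkt did not pass 1.5-fold. In Plac8-positive barcodes of day 5, 2 of the 7 were higher and 0 lower, where 9.65% of all genes were higher and 24.1% lower.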
